A study of Drosophila melanogaster with 4 samples.

Results

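The genes described here are the actin genes of Drosophila melanogaster and genes of the muscle sarcomere. The testis sheath is muscle, but no library held the sheath alone. Some of the genes also serve other cells or belong to flight and jump muscles. The genes were chosen by name as a list of 36, and no measured value entered the rule. The choice was made, however, with earlier results of these data known. The list holds the cytoplasmic and muscle actins, the myosin chains, tropomyosin, troponin, the titin-like giants, proteins of the Z-disc and the proteins that store and release calcium. Of these, 35 were matched to a row of the count tables, out of 17559 genes in all. The myosin chaperone unc-45 was not matched and was not analysed here. Unc-89, the fly obscurin, is annotated under its current symbol Obsc.

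Poly(A) RNA of testes dissected together with the seminal vesicle was sequenced from 2 genotypes, with 2 libraries each and 150 pairs of testes in each library. The Caf40 knockdown males (Caf40RNAi(BL67987)/nosGAL4) carried a hairpin against Caf40, a subunit of the CCR4-NOT deadenylase, under the nanos driver of early germ cells, and per the study's methods the driver strain also carried UAS-Dicer2. They grew at 25 °C for 3 days and then at 29 °C, and were dissected at 0 to 2 days of adult age. The bam mutant males (bam1/bam86, with CyO per the study's methods) grew at 22 °C, were held at 37 °C for 30 min as pupae although they carried no heat-shock construct, were returned to 25 °C and were dissected after 48 h. By these labels neither group is wild type, and per the study the germ cells overproliferate in both. The names given to the deposited tables and their columns, however, call the libraries labelled bam mutant WT, with a time of 0 h past the heat shock. Groups here follow the labels. For its comparison with the Caf40 knockdown, the study's methods also name bam mutant testes at 48 h after heat shock. Which description holds was not tested from the counts. The driver is a germline driver, so the muscle of the sheath was not its intended site. Rearing temperature, heat shock, strain and sequencing depth separated the libraries exactly as genotype did, and these cannot be told apart. Adult age is not labelled for the bam mutant males, and the study's methods give 0 to 2 days without naming a genotype. Whether age differed between the groups is therefore not known. The labels do not say whether the libraries came from separate cultures, so p-values measure only the spread between these libraries, which may be technical.

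The Drosophila testis is wrapped in a sheath of multinucleate muscle that forms in the pupa, and the seminal vesicle has a muscle coat of its own. In a muscle fibre, thin filaments of actin, tropomyosin and troponin slide past thick filaments of myosin. Thin filaments are anchored at the Z-disc by alpha-actinin and Zasp proteins, titin-like proteins span from the Z-disc to the thick filament, and calcium released from the sarcoplasmic reticulum through the ryanodine receptor is pumped back by SERCA. The fly has a family of actin genes with nearly the same coding sequence, of which Act5C and Act42A serve the cytoplasm of most cells and the others serve muscles. Among these, Act88F is the actin of the indirect flight muscle and Act79B is found in leg and jump muscles.

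The Caf40 knockdown libraries held 30411385 and 26984758 gene counts, against 118209171 and 95125694 in the bam mutant libraries. Levels are given as CPM, the count of a gene per 1e6 counts of its library, after scaling with edgeR's TMM factors. A gene at 0 could have had up to 3 counts (95% confidence), which corresponded to 0.0997 and 0.103 CPM in the knockdown and to 0.0265 and 0.0322 CPM in the bam mutant. These limits cover only the error of counting. Every library held all 35 genes. All 35 passed the filter on low counts, and 34 had at least 10 counts in each library, the exception being Zasp67. Permuting the 4 libraries exactly could give no two-sided p below 0.333 for a gene. The adjusted p-values below come from edgeR's quasi-likelihood test, which shares the spread across genes, with Benjamini-Hochberg adjustment over 10854 genes. Genes with an adjusted p under 0.05 are referred to as called. Caf40 itself, annotated as Rcd-1, was at 13.5 and 16.2 CPM in the knockdown, against 204 and 207 CPM in the bam mutant (log2 fold change -3.80, adjusted p 2.09e-05).

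Most genes of the sarcomere were lower in the Caf40 knockdown than in the bam mutant. Of the 35, 24 were called lower, against 33.0% of all genes tested, 3 were called higher, against 30.7%, and 8 were not called. The median log2 fold change of the 35 was -0.67, and that of all genes tested was 0.03. The libraries of the 2 genotypes did not overlap for 34 of the 35 genes, as for 83.4% of all genes tested. For 28 of these both knockdown libraries lay below both bam mutant libraries, a pattern found in 42.0% of all genes tested, and for 6 above, found in 41.4%. The list was also described at a cut of 5 CPM, which was not planned. The 29 genes that averaged 5 CPM or more held all 24 lower calls and no higher call, with a median of -0.74. The 6 genes under 5 CPM held all 3 higher calls and no lower call. A lower cut can move a higher call, such as that of Act79B, to the upper part. Of these 6 genes, 5 are genes of flight and jump muscle, so level and muscle type cannot be told apart. Levels are shares of a library. In bulk tissue, fewer muscle cells, less RNA per muscle cell and more RNA from other cells cannot be told apart.

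**Figure D1:**
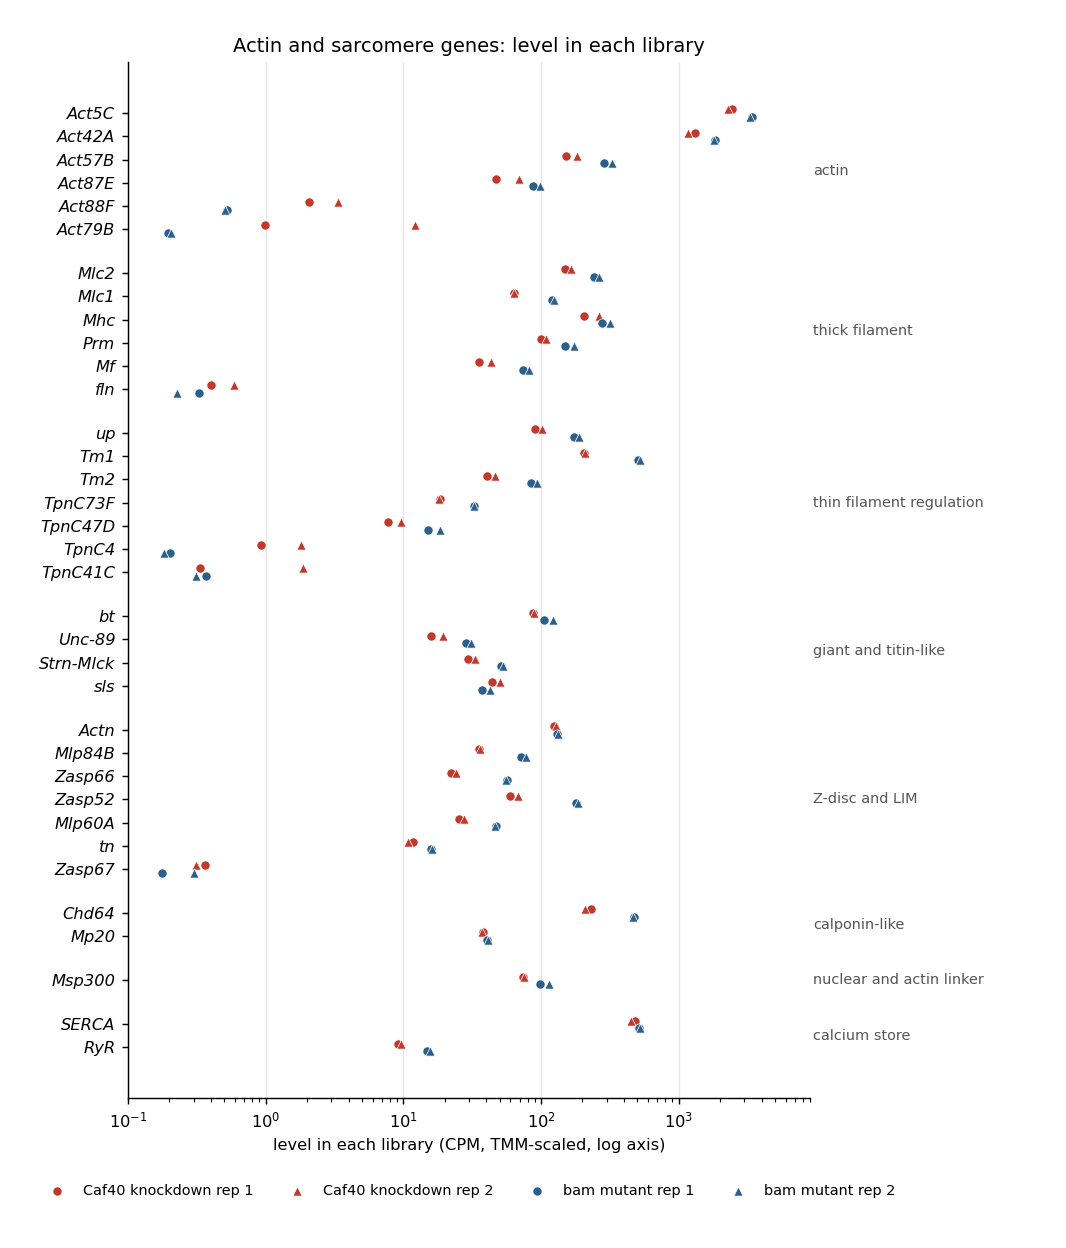
Level of each of the 35 genes in each library, in TMM-scaled CPM on a log axis, with red symbols for Caf40 knockdown, blue symbols for bam mutant, circles for replicate 1 and triangles for replicate 2. Genes are grouped by role. Most red symbols sit to the left of the blue ones, apart from sls and genes below 1 CPM in the bam mutant.

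The members together took 0.610% and 0.645% of the gene counts in the knockdown libraries, against 0.879% and 0.907% in the bam mutant libraries. Act5C alone was the most abundant of them in every library. The cytoplasmic actins Act5C and Act42A together held 60.95% and 57.25% of the members' counts in the knockdown libraries. In the bam mutant libraries they held 57.33% and 55.04%, so the summed share is not a share of muscle RNA. Scaling changed the size of the shift but not its direction. Scaling to a list of germline genes moved the median of all genes tested by -0.86 and upper quartile scaling moved it by 0.15. The members' median less that of all genes was -0.70 with TMM, -0.68 with the germline list and -0.69 with upper quartile scaling, and it lay between -0.84 and -0.63 over the 15 alternative settings. Under the germline list the calls over all genes were 484 higher and 7833 lower, against 3329 and 3583 with TMM.

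The cytoplasmic actins were the most abundant members and both fell. Act5C (FBgn0000042, chromosome X, 5900861 to 5905399, plus strand) had 2453 and 2268 CPM in the knockdown, against 3425 and 3288 CPM in the bam mutant. The knockdown libraries were the lower pair and the groups did not overlap. The means were 2361 ± 131 and 3356 ± 96.9 CPM (SD, n = 2 each), and the log2 fold change was -0.51 (SE 0.08, 95% interval -0.71 to -0.31, adjusted p 0.00305). Act42A, the other cytoplasmic actin, was at 1306 and 1166 CPM in the knockdown and at 1832 and 1811 CPM in the bam mutant, a log2 fold change of -0.56 (adjusted p 0.00257). Per kilobase of exon the 2 genes stood almost level. Act5C was 1.02 and 1.06 times Act42A in the knockdown and 1.02 and 0.991 times in the bam mutant. Cytoplasmic actin is used by all cells, germ cells included, and does not mark muscle.

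Among the muscle actins, 2 fell and 2 rose. Act57B, an actin of larval and adult body muscles, had 153 and 184 CPM in the knockdown, against 286 and 328 CPM in the bam mutant. Its log2 fold change was -0.87 (adjusted p 0.00166), and it was the leading muscle actin in every library, with 3.85% and 4.96% of all actin counts in the knockdown and 5.08% and 5.94% in the bam mutant. Act87E, a further body muscle actin, was at 47.1 and 69.1 CPM in the knockdown and at 87.0 and 97.5 CPM in the bam mutant. The groups did not overlap, but the knockdown libraries differed by 1.47 times, and the log2 fold change of -0.67 (adjusted p 0.0215) was no longer called without bam mutant replicate 1 (-0.83, adjusted p 0.0855) or replicate 2 (-0.67, adjusted p 0.140), with upper quartile scaling or by library size alone. The actin genes share most of their coding sequence. Read pairs that matched several places, 1.84% to 2.66% of all pairs, were left out by the counting, and an unknown part of the actin reads was lost with them.

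Act79B and Act88F went the other way, at low levels. Act79B (FBgn0000045, chromosome 3L, 21985210 to 21987190, plus strand) had 30 and 351 counts in the knockdown, or 0.997 and 12.1 CPM, against 22 and 19 counts, or 0.194 and 0.204 CPM, in the bam mutant. Knockdown replicate 2 stood far above the other 3 libraries, at 12.1 times replicate 1. The log2 fold change was 5.03 (SE 1.21, interval from 1.99 to 8.06, adjusted p 0.0150), and it was 2.32 (adjusted p 0.00138) without knockdown replicate 2 and 5.87 (adjusted p 1.89e-11) without replicate 1. It was not called without bam mutant replicate 1 (4.93, adjusted p 0.132) or replicate 2 (5.001, adjusted p 0.131), nor with limma-voom. Act88F (FBgn0000047, chromosome 3R, 15439969 to 15442177, plus strand) was at 2.06 and 3.38 CPM in the knockdown and at 0.521 and 0.505 CPM in the bam mutant, a log2 fold change of 2.40 (SE 0.38, interval from 1.44 to 3.36, adjusted p 0.00325). Without bam mutant replicate 1 or 2 it was at 2.35 or 2.30 and not called (adjusted p 0.0558 and 0.0587).

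**Figure D2:**
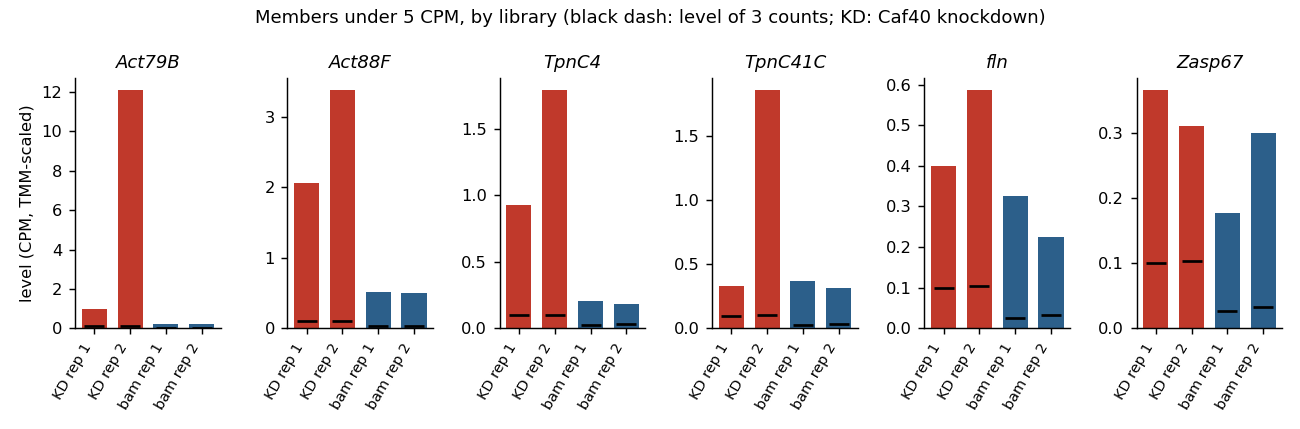
Level in CPM of the 6 members under 5 CPM, with Caf40 knockdown libraries in red at the left, bam mutant libraries in blue at the right, a linear axis from 0 for each gene and a black dash at the level of 3 counts. Act79B reached 12.1 CPM in knockdown replicate 2 and stayed at or below 0.997 CPM in the other 3 libraries, while Zasp67 did not pass 0.366 CPM anywhere.

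Of the 6 thick filament genes measured, 4 were called lower, none was called higher, and Mhc and fln were not called. Over all genes tested, 33.0% were called lower and 30.7% higher, and counts by role rest on few genes. Mhc (FBgn0264695, chromosome 2L, 16766566 to 16788766, plus strand), the only gene of muscle myosin heavy chain, was at 206 and 264 CPM in the knockdown and at 275 and 319 CPM in the bam mutant. The knockdown values were the lower ones, but replicates differed by more than the gap between the nearest libraries of the groups. The means were 235 ± 41.1 and 297 ± 31.5 CPM (SD, n = 2 each), and the log2 fold change of -0.34 (SE 0.14, interval from -0.69 to 0.01) was not called (adjusted p 0.0811). Leaving out a knockdown library made it a call, at -0.21 (adjusted p 0.0201) without replicate 1 and -0.53 (adjusted p 1.91e-04) without replicate 2.

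The light chains that bind the neck of the myosin head were clearly apart between genotypes. Mlc1, the essential light chain, was at 63.9 and 63.6 CPM in the knockdown and at 119.6 and 124 CPM in the bam mutant, a log2 fold change of -0.93 (adjusted p 8.95e-05). Mlc2, the regulatory light chain, was at 150 and 166 CPM in the knockdown and at 244 and 265 CPM in the bam mutant, a log2 fold change of -0.69 (adjusted p 9.09e-04). Prm, the paramyosin of the thick filament core, was at 100.4 and 109 CPM in the knockdown and at 148 and 172 CPM in the bam mutant (-0.62, adjusted p 0.00246). Mf, the thick filament protein myofilin, was at 35.7 and 43.5 CPM against 74.4 and 81.4 CPM in the bam mutant (-0.98, adjusted p 8.71e-04). In each of these 4 genes both knockdown libraries lay below both bam mutant libraries, as in 42.0% of all genes tested. Flightin (fln), a thick filament protein of the flight muscle, had 12 and 17 counts in the knockdown and 37 and 21 in the bam mutant, with a log2 fold change of 0.83 whose interval ran from -0.45 to 2.10 (adjusted p 0.201).

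Ratios within a library do not depend on the scaling between libraries. Per kilobase, Mlc1 stood at 1.99 and 1.54 times Mhc in the knockdown and at 2.79 and 2.49 times in the bam mutant. The ratio of Mlc2 to Mhc was 2.88 and 2.48 in the knockdown and 3.52 and 3.29 in the bam mutant, and that of Act57B to Mhc was 3.89 and 3.65 against 5.47 and 5.40. Troponin T (up) and Tm2 behaved likewise, with up at 1.56 and 1.37 times Mhc in the knockdown and 2.25 and 2.11 times in the bam mutant. All 6 ratios to Mhc that were computed were lower in both knockdown libraries than in both bam mutant libraries. All 6 genes had a lower fitted log2 fold change than Mhc (-0.34), so this direction largely follows from their choice. Actn (-0.05), Mp20 (-0.12), SERCA (-0.17) and sls (0.24) lay above Mhc on that scale and were not set against it. Prm gave the smallest gap, at 0.824 and 0.697 in the knockdown and 0.914 and 0.913 in the bam mutant. These lengths are of all annotated exons of a gene together, so a ratio compares libraries rather than molecules.

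**Figure D3:**
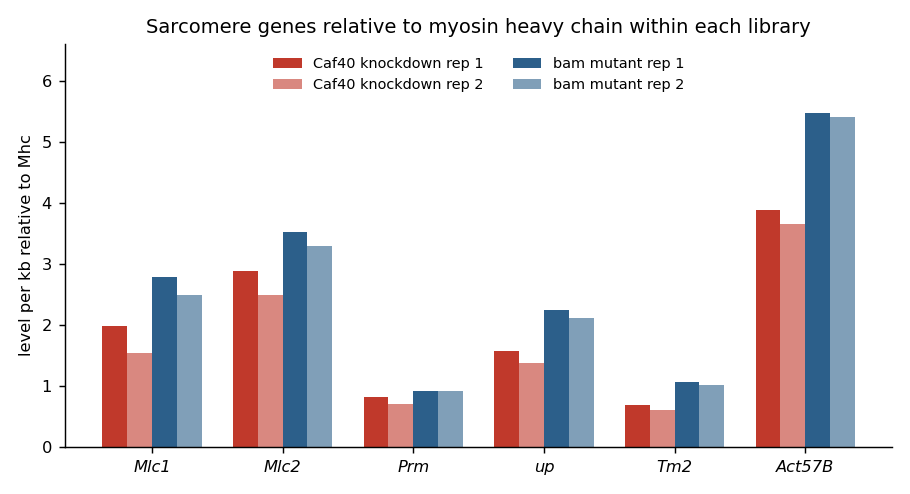
Level per kilobase of 6 sarcomere genes divided by that of Mhc in the same library, with Caf40 knockdown bars in red and bam mutant bars in blue. For each gene both red bars are shorter than both blue bars, for example 1.99 and 1.54 against 2.79 and 2.49 for Mlc1.

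Of the 7 genes that regulate the thin filament, 5 were called lower and 1 higher, beside 33.0% and 30.7% of all genes. Their median log2 fold change was -0.91. Tm1 (FBgn0003721, chromosome 3R, 15278220 to 15308779, plus strand), a tropomyosin gene with both muscle and cytoplasmic isoforms, was at 205 and 209 CPM in the knockdown and at 506 and 520 CPM in the bam mutant. The replicates lay close together and the groups far apart, with means of 207 ± 2.70 and 513 ± 10.04 CPM (SD, n = 2 each). The fitted change on the log2 scale was -1.31 (SE 0.06, interval from -1.46 to -1.16, adjusted p 5.63e-05). Tm2, the neighbouring tropomyosin gene, was at 40.6 and 46.4 CPM in the knockdown and at 84.1 and 93.7 CPM in the bam mutant (-1.03, adjusted p 3.96e-04). The counts do not separate the isoforms of Tm1.

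Troponin T is the subunit that ties the troponin complex to tropomyosin. Its gene, up (FBgn0004169, chromosome X, 13593474 to 13602578, minus strand), was at 90.0 and 101 CPM in the knockdown and at 172 and 188 CPM in the bam mutant. The groups did not overlap, with means of 95.7 ± 8.03 and 180 ± 10.97 CPM (SD, n = 2 each) and a log2 fold change of -0.91 (SE 0.08, interval from -1.12 to -0.71, adjusted p 4.01e-04). The troponin I gene wupA was not matched to the count tables and was not analysed here.

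Troponin C is the calcium sensor of the thin filament, and its genes did not all move the same way. TpnC73F was at 18.4 and 18.1 CPM in the knockdown and at 32.9 and 32.4 CPM in the bam mutant (-0.84, adjusted p 2.35e-04). TpnC47D was at 7.78 and 9.54 CPM in the knockdown and at 15.2 and 18.3 CPM in the bam mutant (-0.95, adjusted p 0.00396). Both fell. TpnC4 (FBgn0033027, chromosome 2R, 5503437 to 5507866, minus strand), the troponin C gene of the flight muscle, had 28 and 52 counts in the knockdown, or 0.931 and 1.79 CPM, against 23 and 17 counts, or 0.203 and 0.182 CPM, in the bam mutant. Its log2 fold change was 2.81 (SE 0.50, interval from 1.54 to 4.07, adjusted p 0.00509), and without bam mutant replicate 1 or 2 it was at 2.81 or 2.65 and not called (adjusted p 0.0971 and 0.106). TpnC41C, found in flight and jump muscles, was the only member whose groups overlapped, at 0.332 and 1.86 CPM in the knockdown and at 0.371 and 0.311 CPM in the bam mutant. Its value of 1.68 (adjusted p 0.125) rested on knockdown replicate 2, and it was -0.040 without that library and 2.39 (adjusted p 6.27e-05) without knockdown replicate 1.

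The flight and jump muscle genes Act88F, Act79B, fln, TpnC4 and TpnC41C summed to 4.72 and 19.7 CPM in the knockdown libraries and to 1.61 and 1.43 CPM in the bam mutant libraries. Each of the 5 had more CPM in knockdown replicate 2 than in knockdown replicate 1, as did 21 of the other 30 members. Of the 5, 4 lay above both bam mutant libraries in both knockdown libraries, as did 41.4% of all genes tested. These 5 genes took a small share of the muscle signal. Act79B was at 0.00696 and 0.0701 times Act57B per kilobase in the knockdown and at 7.23e-04 and 6.61e-04 times in the bam mutant. Accessory gland genes, from an organ that lies beside the testis, also differed between the knockdown libraries but in the other direction. The 12 on the list had a summed level of 399 and 46.5 CPM in the knockdown libraries, with replicate 1 the higher, and of 9.83 and 2.79 CPM in the bam mutant libraries. The part that RNA of neighbouring tissue had in these values was not tested.

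Of the 4 giant and titin-like genes, 3 were called lower, beside 33.0% of all genes, and 1 was not called. Their median was -0.55. Projectin (bt), on the small chromosome 4, was at 87.4 and 88.4 CPM in the knockdown and at 105 and 121 CPM in the bam mutant (-0.37, adjusted p 0.0104), a call that was lost with upper quartile scaling and by library size alone. Unc-89 (obscurin, of the M-line) was at 15.8 and 19.4 CPM in the knockdown and at 28.3 and 30.9 CPM in the bam mutant (-0.75, adjusted p 0.00287). Strn-Mlck, a kinase related to titin, was at 29.7 and 33.0 CPM in the knockdown and at 51.5 and 53.3 CPM in the bam mutant (-0.74, adjusted p 6.71e-04). The gene sls, which encodes the Z-disc titin and kettin, was the abundant member that did not lie lower. It was at 44.1 and 50.0 CPM in the knockdown and at 37.0 and 42.5 CPM in the bam mutant, a difference of 0.24 that was not called (interval from -0.01 to 0.50, adjusted p 0.0842) and that was -0.61 and called lower when scaled to germline genes. Calls in the higher direction were made with upper quartile scaling (0.39, adjusted p 0.0380), without knockdown replicate 1 (0.29, adjusted p 0.00989) and with the replicate block (0.24, adjusted p 0.0190). Per kilobase sls stood at 0.240 and 0.268 times bt in the knockdown and at 0.167 in either bam mutant library.

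The largest decrease of the list lay among the Z-disc and LIM-domain genes. Of 7, 5 were called lower and none higher, beside 33.0% and 30.7% of all genes, with a median of -0.82. Zasp52 (FBgn0265991, chromosome 2R, 15762565 to 15817004, minus strand), which binds alpha-actinin and is needed to build the Z-disc, was at 59.3 and 68.0 CPM in the knockdown and at 179.8 and 186 CPM in the bam mutant. The knockdown mean of 63.7 ± 6.21 CPM was 34.8% of the bam mutant mean of 183 ± 4.25 CPM (SD, n = 2 each), with a log2 fold change of -1.52 (SE 0.08, interval from -1.72 to -1.32, adjusted p 7.81e-05). This was the largest decrease of the 35. Zasp66 (FBgn0035917, chromosome 3L, 8624371 to 8638813, plus strand), a relative of Zasp52, was at 22.0 and 24.3 CPM in the knockdown and at 56.3 and 55.6 CPM in the bam mutant, a log2 fold change of -1.27 (SE 0.07, interval from -1.46 to -1.09, adjusted p 1.01e-04).

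Both genes of muscle LIM proteins fell. Mlp84B (FBgn0014863, chromosome 3R, 7112850 to 7117732, minus strand) was at 35.5 and 36.2 CPM in the knockdown and at 71.4 and 77.9 CPM in the bam mutant. The knockdown level was 48.0% of the bam mutant level, with a log2 fold change of -1.06 (SE 0.07, interval from -1.23 to -0.88, adjusted p 1.47e-04). Mlp60A was at 25.3 and 27.6 CPM in the knockdown and at 47.0 and 46.5 CPM in the bam mutant (-0.82, adjusted p 3.66e-04). The gene tn (thin), which encodes a TRIM protein that keeps the Z-disc in place, fell by less, with 11.7 and 10.8 CPM in the knockdown and 15.8 and 16.1 CPM in the bam mutant (-0.51, adjusted p 0.00750).

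Actn, the alpha-actinin that cross-links thin filaments and that also serves cells other than muscle, hardly differed. It was at 125 and 129 CPM in the knockdown and at 129.9 and 133 CPM in the bam mutant. The log2 fold change was -0.05 with an interval from -0.18 to 0.08 (adjusted p 0.422), so a fall of the size seen for Zasp52 lies outside it. Upper quartile scaling turned its sign, to 0.097, whereas it was called lower with the germline list (-0.91) and with no filter beyond 1 count (-0.20). Zasp52 relative to Actn per kilobase was 0.229 and 0.254 in the knockdown and 0.668 and 0.673 in the bam mutant. Zasp67 had 11 and 9 counts in the knockdown and 20 and 28 in the bam mutant, and no difference was detectable at this depth (0.50, interval from -0.89 to 1.90, adjusted p 0.452).

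**Figure D4:**
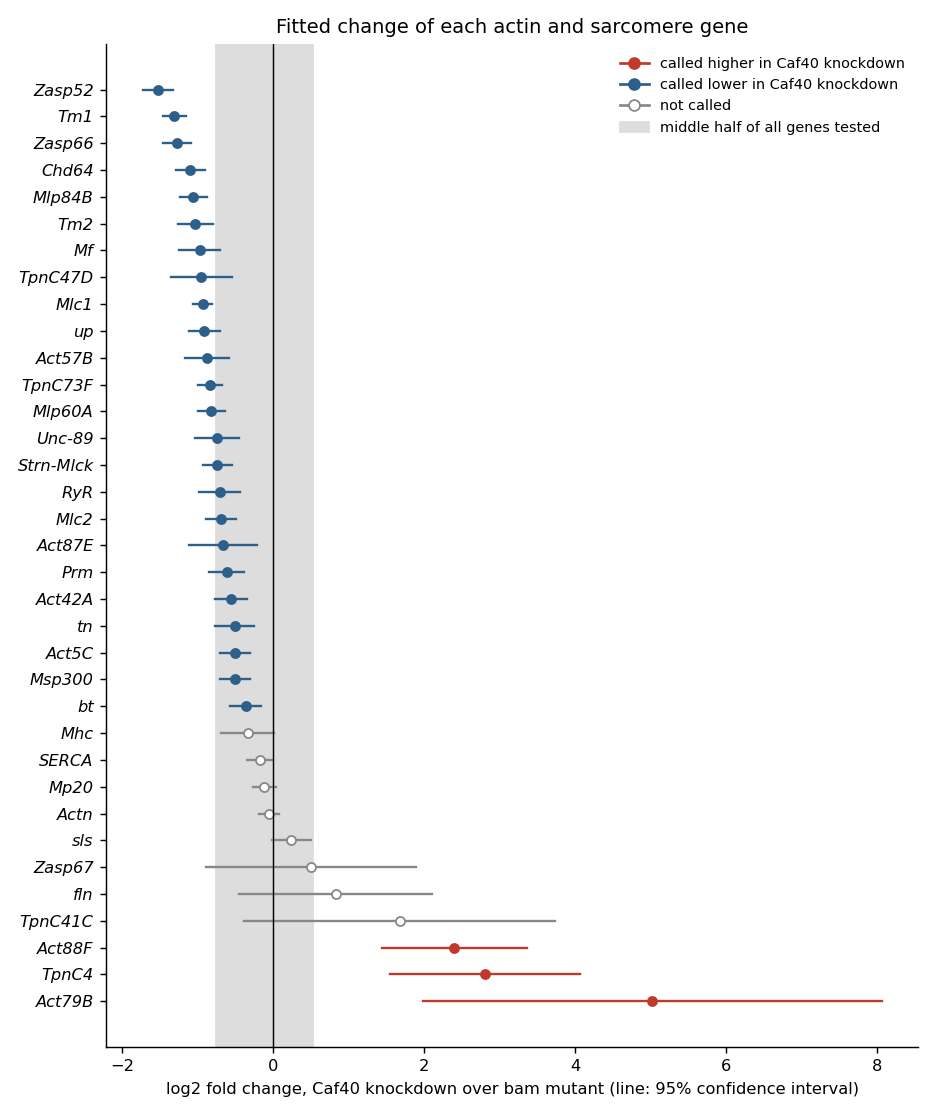
Log2 fold change of each gene, Caf40 knockdown over bam mutant, with its 95% confidence interval as a line, sorted from the largest decrease to the largest increase. Blue marks genes called lower, red marks genes called higher, open grey circles were not called, and the grey band spans the quartiles of all genes tested, from -0.75 to 0.53.

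Calponin-like proteins bind actin filaments, and the pair differed. Chd64 (FBgn0035499, chromosome 3L, 4114289 to 4122388, minus strand) was at 231 and 207 CPM in the knockdown and at 476 and 462 CPM in the bam mutant. Both knockdown libraries lay far below, with a log2 fold change of -1.10 (SE 0.08, interval from -1.29 to -0.91, adjusted p 1.74e-04). Mp20, the muscle calponin, was at 37.9 and 37.0 CPM in the knockdown and at 40.2 and 41.0 CPM in the bam mutant. Its log2 fold change of -0.12 was not called (interval from -0.27 to 0.04, adjusted p 0.143) and became 0.030 with upper quartile scaling, whereas it was called lower with the germline list (-0.97) and with no filter beyond 1 count (-0.27).

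Msp300, the nesprin that links muscle nuclei to actin, was at 74.5 and 74.9 CPM in the knockdown and at 99.0 and 113 CPM in the bam mutant (-0.51, adjusted p 0.00287). Of the calcium store genes, RyR, the release channel, fell, and the pump did not pass the test. RyR was at 9.14 and 9.61 CPM in the knockdown and at 15.0 and 15.7 CPM in the bam mutant (-0.71, adjusted p 0.00278). SERCA, the calcium pump of the endoplasmic and sarcoplasmic reticulum of all cells, was at 479 and 446 CPM in the knockdown and at 513 and 527 CPM in the bam mutant. Its log2 fold change was -0.17 (interval from -0.34 to 0.002, adjusted p 0.0760), and it was called lower in 9 of the 15 alternative settings, by DESeq2 among them. Per kilobase RyR was 0.00962 and 0.0109 times SERCA in the knockdown and 0.0147 and 0.0150 times in the bam mutant.

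The order of the members by level per kilobase was much the same in both genotypes at the top, with Act5C, Act42A, Chd64, Act57B and Mlc2 as the first 5 in each. SERCA stood at rank 6 in the knockdown and rank 8 in the bam mutant, Mp20 at 8 and 11, and Tm1 at 13 and 9. Act79B stood at rank 23 in the knockdown and rank 34 in the bam mutant, on the strength of knockdown replicate 2.

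Other genes of muscle were counted in the same way, on lists drawn up with earlier results of these data known, beside 33.0% of all genes called lower and 30.7% called higher. Of 12 other sarcomere genes, 8 were called lower and 1 higher, with a median of -0.81. CAP, a vinculin-binding protein of muscle attachment, fell by 2.20 on the log2 scale and tmod, which caps the thin filament, fell by 1.16, whereas the formin DAAM rose by 0.83, a sign that turned under scaling to the germline list (-0.031). Argk1 (arginine kinase) did not differ beyond its spread (0.0046, interval from -0.20 to 0.21). All 10 integrin attachment genes tested were called lower, with a median of -1.01 and values from -3.04 (kon) to -0.64 (Ilk). Of 7 myoblast fusion genes 4 were lower and none higher, of 9 excitation and calcium genes 4 were lower and none higher, and of 15 non-muscle actomyosin genes 14 were lower and none higher, with medians of -0.61, -0.30 and -0.59. The counts of the fusion and calcium lists rest on few genes, and whether they differ from the share of all genes was not tested.

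Mef2, the transcription factor that switches on sarcomere genes, was called higher with TMM and called lower under scaling to the germline list (-0.57, adjusted p 0.00192). It was at 46.4 and 46.5 CPM in the knockdown and at 36.5 and 39.9 CPM in the bam mutant, with means of 46.5 ± 0.0819 and 38.2 ± 2.37 CPM (SD, n = 2 each). The log2 fold change was 0.28 (SE 0.07, interval from 0.11 to 0.46, adjusted p 0.0170), and it was not called without bam mutant replicate 1 (0.13, adjusted p 0.223) or replicate 2 (0.26, adjusted p 0.0596) or with no filter beyond 1 count. Of the 8 muscle identity genes tested, Mef2 was the only one called higher and 3 (Lmpt, Him and htl) were called lower, with a median of -0.27, a share near that of all genes called lower. Him had 6 and 4 counts in the knockdown and 53 and 43 in the bam mutant (adjusted p 0.0486), and the lower calls on this list numbered 2 with DESeq2, with limma-voom and with the replicate block. The bap and nau genes, early regulators of visceral and body muscle, had no count in the knockdown libraries and at most 2 in the bam mutant libraries.

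**Figure D5:**
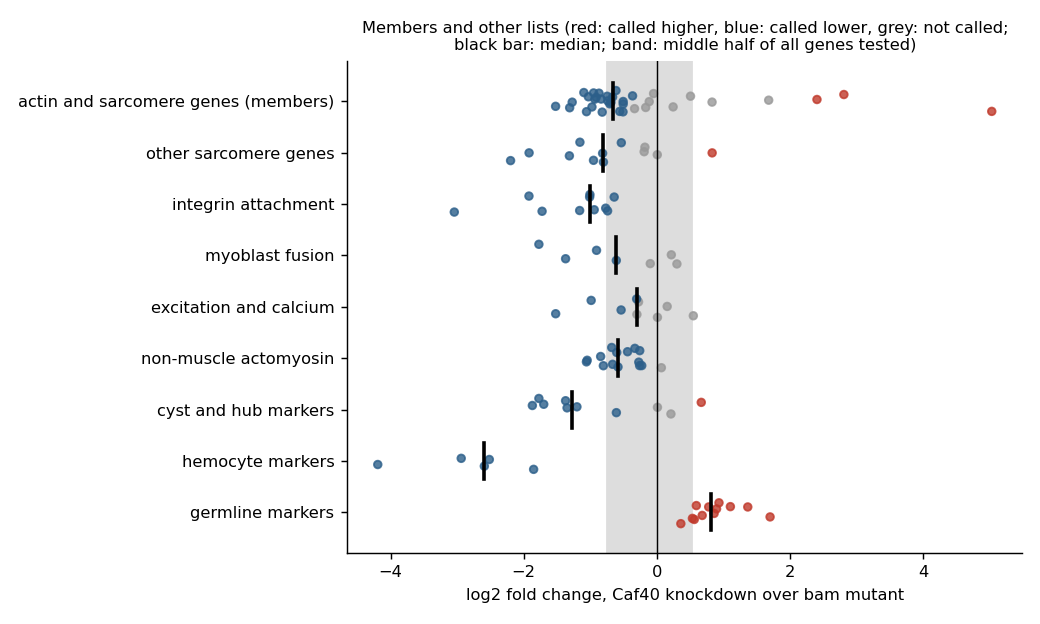
Log2 fold change, Caf40 knockdown over bam mutant, of each gene of the actin and sarcomere list and of 8 other lists, with red for called higher, blue for called lower, grey for not called, a black bar at each list's median and a grey band between the quartiles of all genes tested. The median was -0.67 for the actin and sarcomere genes, -1.01 for integrin attachment, -2.59 for hemocyte markers and 0.82 for germline markers.

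Markers of other cells were counted beside the 33.0% of all genes called lower and the 30.7% called higher. All 12 germline markers were called higher, with summed levels of 3504 and 3148 CPM in the knockdown and 1945 and 1914 CPM in the bam mutant. Of 10 cyst and hub markers, 7 were called lower and 1 higher, with a median of -1.28 and sums of 396 and 352 CPM in the knockdown against 579.9 and 592 CPM in the bam mutant. All 5 hemocyte markers were called lower, with a median of -2.59 and sums of 89.7 and 66.7 CPM in the knockdown against 503 and 414 CPM in the bam mutant, and He was at 0 and 2 counts in the knockdown. Of 4 fat body markers 2 were called higher, and 1 of 4 neuronal and 1 of 3 tracheal markers were called lower. These counts rest on few genes. The neuronal call was nSyb, at 2.19 and 2.03 CPM in the knockdown against 42.95 and 47.1 CPM in the bam mutant (log2 fold change -4.41). The other 3 neuronal markers tested were not called. The part of these other cells in the fall of the sarcomere genes was not tested.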

How the data were processed

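The authors trimmed reads with Trim Galore, aligned read pairs to dm6 (BDGP6) with STAR and deposited raw counts per gene of each library, unstranded and by strand. Versions and annotation release are not given in the sources used here. Counts on the strand read by the directional kit were used, since the opposite strand held 2.47% to 2.54% of stranded gene counts. The 4 summary entries that name no gene (26.9% to 30.8% of read pairs) were left out. A table of normalised counts (4 per-sample columns, of which those of the bam mutant carry the names WT and 0 h, against the labels) and the authors' DESeq2 comparison (fold changes and p-values) were not used.

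Groups were read from the sample titles. The counts were filtered (filterByExpr), scaled (TMM, the trimmed mean of M-values) and tested in R 4.3.3 with edgeR 4.0.16 (glmQLFit, glmQLFTest, genotype as the only term). Standard errors are the log2 fold change divided by the square root of F. Alternatives used other scalings and filters, DESeq2 1.42.0, limma 3.58.1, unstranded counts, thinning of the bam mutant counts to knockdown depth, each library left out and a replicate block. Symbols were found for 17253 of 17559 identifiers, and lengths and coordinates are from the Ensembl release of BDGP6.54. Values in full were given for the 5 largest decreases and up to 5 largest increases called, and for Act5C, Mhc, up and Mef2. Members and lists were chosen with earlier results of these data known. No sequence was printed, since the reference used held none.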

Additional observations from a re-analysis of the deposited data

Results flagged for a closer look

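Read pairs on the strand opposite to a gene entered the comparisons above only through the alternative with unstranded counts. For 4 of the 7 members with at least 10 such pairs in each knockdown library, they lay above the bam mutant level in both. Over all genes tested the same was found for 50.7% of the 3087 genes with that many pairs, so the count is near the background. Actn averaged 15.4 CPM on the opposite strand in the knockdown and 13.4 CPM in the bam mutant, and its nearest libraries stood at 13.6 and 13.4 CPM, where the annotation places CG4313 and east on that strand. SERCA averaged 9.68 CPM in the knockdown and 7.203 CPM in the bam mutant, opposite CG2812. Strn-Mlck averaged 5.31 CPM in the knockdown and 1.85 CPM in the bam mutant, opposite Cyp4aa1 and a long noncoding RNA. Unc-89 averaged 0.860 CPM in the knockdown and 0.263 CPM in the bam mutant, with no annotated exon opposite its own. In Strn-Mlck the opposite strand made up 14.9% and 14.2% of its stranded counts in the knockdown and 2.90% and 3.89% in the bam mutant, and the unstranded counts left its call in place. These differences were not tested.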

How the results depend on the processing

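Under 15 alternatives the number of members called lower ran from 22 to 29, against 24, and their median stayed below 0. It was -0.51 with upper quartile scaling, -0.57 by library size alone, -1.51 with the germline list (484 higher and 7833 lower calls over all genes) and -0.81 with no filter beyond 1 count. Leaving out 1 library at a time gave medians from -0.83 to -0.65, 24 to 26 members lower and 0 to 5 higher, with 5 higher without knockdown replicate 1 and 0 without bam mutant replicate 1 or 2. Over all genes it gave 1915 to 4042 higher and 3068 to 4233 lower, with 1915 higher without bam mutant replicate 2 and 2057 without replicate 1. The sign turned for fln (-0.010), sls (-0.61) and Zasp67 (-0.35) with the germline list, for Actn with upper quartile scaling (0.097) and library size alone (0.042), for Mp20 with upper quartile scaling (0.030) and for TpnC41C without knockdown replicate 2 (-0.040), which was 2.39 and called without knockdown replicate 1. Of these only sls under the germline list was called, and the cause was not tested. The labels do not say that a replicate number marks a shared culture, batch or day, and the deviations of same-numbered libraries correlated at 0.264 across genes. With a replicate block, 25 members were lower, 4 higher and the median was -0.69, and Mhc and sls became calls. Depth limits Zasp67 most, with 9 counts in its lowest library.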
